A study of Homo sapiens with 9 samples.

Results

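The transcriptome of stable HEK293T cells expressing R273H p53 was compared with that of cells expressing WT p53. The comparison used the 3 R273H and the 3 WT libraries out of the 9 in the series, and its members were the 16022 of 78986 genes in the table that passed a filter on low counts. The libraries were chosen by their genotype labels alone, and no measured value entered that choice. HEK293T is a human embryonic kidney line that carries its own p53 gene and the viral large T antigen, a protein known to bind p53, so every line also holds endogenous p53 that large T can bind. WT, R273H or G245S p53 was delivered by lentivirus, and all lines were kept in 1.5 µg/mL puromycin, with no other agent named for any group. The labels give the line as HEK 293 in 1 field and as HEK293T in another, and they describe the replicates by number, while the study's methods call them biological replicates. The sources used here do not state that any genotype was transduced more than once, so the p53 allele and the history of its line cannot be told apart.

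p53 is a transcription factor that binds DNA as a tetramer at response elements built from a pair of adjacent decamers, each with a core of C and G around a pair of A or T bases. Its targets halt the cell cycle, repair DNA, start apoptosis, restrain AKT and mTOR signalling and, through MDM2, lead to the degradation of p53 itself. Arginine 273 lies in the DNA-binding domain and touches the DNA backbone, and its replacement by histidine is a frequent mutation in tumours that leaves the fold of the domain largely intact.

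WT replicate 3 held 1486315 counts, against 7325514 to 9667306 in the other 8 libraries, and the main comparison therefore used the 3 R273H libraries and WT replicates 1 and 2. Levels are given as CPM after TMM scaling, that is, counts relative to library size, and a gene is said to have passed, risen or fallen only where the quasi-likelihood test of edgeR gave a p under 0.05 after adjustment by Benjamini and Hochberg's method over all 16022 genes. Of these genes, 22 passed (0.137%), 18 of them lower in R273H (0.112%) and 4 higher (0.025%). At an unadjusted p under 0.05 there were 979 genes (6.11%), where 801 would be expected if none had changed. With all 3 WT libraries, 15698 genes could be tested, and 16 passed (0.102%), 15 lower (0.0956%) and 1 higher (0.00637%), each of which was among the 22. Against the other mutant line, G245S, 0 of 15614 genes passed in edgeR's test without a replicate block, 741 of them (4.75%) had an unadjusted p under 0.05, and DESeq2 called 1. Epithelial markers are described with WT replicate 3 at the end. The 10 markers of HEK293 cells, of embryonic kidney and neuronal-like kinds, summed to 394 to 461 CPM in all 9 libraries. In each library 1 or 2 of these markers had 0 counts.

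**Figure D1:**
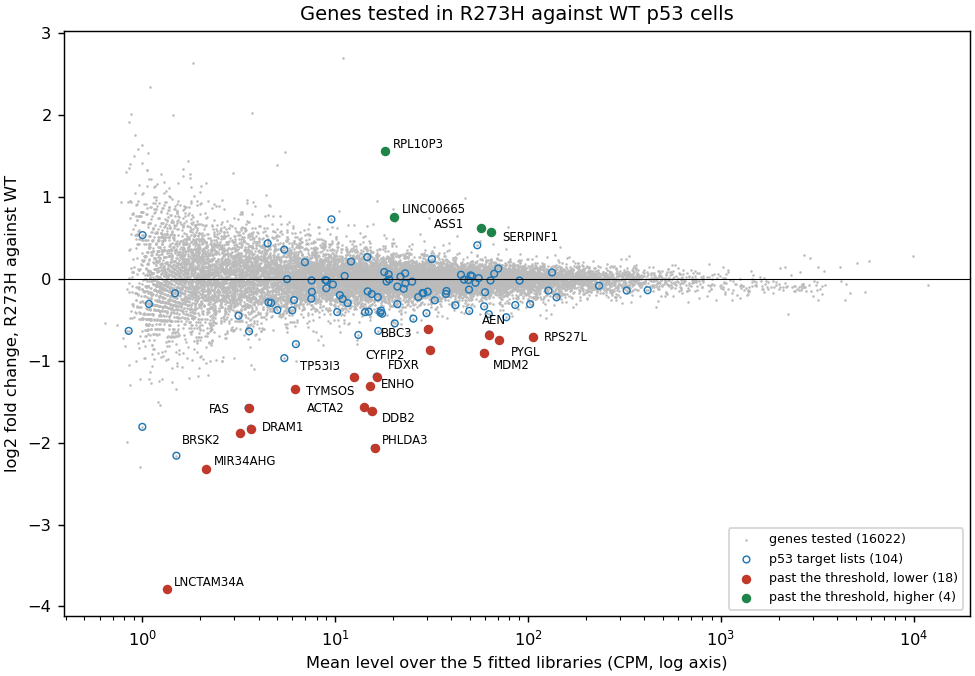
Each point is 1 of the 16022 genes tested, with its mean level over the 5 fitted libraries (CPM, log axis) on the horizontal axis and its log2 fold change in R273H against WT on the vertical axis. The 18 genes that fell (red) lie below the main band of the other genes (grey) at their own level, the 4 that rose (green) lie above it, and the 104 members of the p53 target lists (blue rings) lie mostly below 0.

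The sequences given here are matches to the p53 response element found within 2500 bases of the start of genes that fell. They are shown because the expression values did not use the location of these letters. The search allowed at most 3 mismatches outside the 2 cores, no spacer between the 2 decamers of 10 bases, and both strands. Capitals mark the cores, the letters are those of GRCh38, and each sequence is read along the strand of the gene named.
LNCTAM34A: gaaCAAGcccaggCAAGccc
MIR34AHG: gggCTTGcctgggCTTGttc
FAS: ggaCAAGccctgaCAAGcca
ACTA2: tggCTTGtcagggCTTGtcc
AEN: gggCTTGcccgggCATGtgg
BBC3: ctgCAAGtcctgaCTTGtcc
TP53I3: cagCTTGcccaccCATGctc
The first pair is the same 20 bases, chr1:9182144-9182163, read on opposite strands with 0 mismatches. They lie 140 and 229 bases downstream of the canonical GENCODE starts of 2 non-coding genes on opposite strands. These starts are 388 bases apart, and the 2 genes overlap between them. The second pair is chr10:88991309-88991328, with 2 mismatches, which lies 511 bases after the canonical start of FAS on the plus strand and 9 bases after the RefSeq start of ACTA2 on the minus strand. The AEN match, chr15:88621306-88621325, lies at −34 bases from the start with 2 mismatches. The BBC3 match, chr19:47231320-47231339, lies at −140 bases from its start and the TP53I3 match, chr2:24085165-24085184, at −350 bases, each with 3 mismatches.

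In windows of 5001 bases centred on the canonical start, 8 of the 18 genes that fell held a match, against 12.7% of 15640 tested genes with such a start, and 0 of the 4 that rose did. Of the p53 target lists described next, 33 of 104 members held one. Of the genes printed above, ACTA2 held no match in these windows, and its match was found at its RefSeq start. LNCTAM34A and MIR34AHG are both counted, though they share the same match. The other fallen genes with a match in these windows were RPS27L, with 2, and DRAM1, whose match lies at −2005 bases from its start. In the 300-base RefSeq promoters (250 bases before to 50 after the start), 0.418% of 27305 windows held a match, as did 4 of the 17 fallen genes present in that table, namely ACTA2, AEN, LNCTAM34A and RPS27L. The fallen genes DDB2, MDM2, PHLDA3, FDXR, CYFIP2, PYGL, ENHO, BRSK2 and TYMSOS held no match under this search. This says only that these letters were not in these windows. The shares are a description of sequence and not of binding.

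Lists of p53 target genes, grouped by role and written from general knowledge, held 113 genes, of which 104 passed the filter. The lists were chosen with earlier results of these data known, so the shares given for them are a description only. Of the 104, 11 fell and 0 rose, and all 11 fallen members lay among the 18 genes that fell in all. By sign alone 83 of the 104 were lower in R273H (79.8%, against 49.3% of all genes tested). An unadjusted p under 0.05 on the lower side was found for 38 of them (36.5%, against 3.33% of all genes), and 3 had one on the higher side (2.88%, against 2.78%). All 3 R273H libraries lay below all 3 WT libraries for 36 of the 104 (34.6%, against 5.78% of all genes). The median log2 fold change of the 104 was −0.18, that of all genes was 0.0023, and with all 3 WT libraries the list median was −0.20. For the 93 members that did not pass, the median was −0.16 and 25 lay apart on the lower side, so lower values were not limited to the 11 that passed. In bulk RNA, fewer cells expressing a gene and less of its RNA per cell cannot be told apart. The 9 members without enough counts to test were TP53AIP1, TNFRSF10A, TNFRSF10C, INPP5D, TLR3, TRIM22, VWCE, NUPR1 and SERPINB5.

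Among genes of the feedback loop, MDM2, the ubiquitin ligase that targets p53, was at 79.3 and 84.7 CPM in WT replicates 1 and 2, at 66.1 in WT replicate 3 and at 41.9, 46.2 and 43.3 in R273H. It fell by 0.90 on the log2 scale (SE 0.09, adjusted p = 0.000228 in edgeR), to 53.5% of WT. The groups did not overlap, and the call was lost only with WT replicates 1 and 3 as the WT group (edgeR's adjusted p = 0.0642). TP53INP1, a cofactor that promotes apoptosis and autophagy, was at 7.47, 7.97 and 9.84 CPM in WT and at 4.84, 3.96 and 2.97 in R273H without passing (log2 fold change −0.97, edgeR's adjusted p = 0.162). Of the 6 members of this list, 4 were lower by sign, and the other two, MDM4 (0.04) and RCHY1 (0.24), were higher.

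The cell-cycle arrest list had 0 members past the threshold, although all 11 were lower by sign, with a median of −0.40. CDKN1A, the p21 inhibitor of cyclin-dependent kinases, was at 14.9, 18.5 and 19.7 CPM in WT and at 11.9, 14.2 and 11.8 in R273H. The R273H libraries were thus all below the WT libraries, by a narrow margin, and the log2 fold change was −0.41 (95% interval −0.71 to −0.10, edgeR's adjusted p = 0.685), and it passed in 0 of 19 alternatives. BTG2, an antiproliferative protein that promotes mRNA deadenylation, was nearer the threshold, at 16.0, 18.1 and 14.8 CPM in WT and 10.6, 10.8 and 10.3 in R273H (−0.68, edgeR's adjusted p = 0.072). GADD45A, PLK3 and E2F7, named after their values were seen, also had every R273H library below every WT library, with log2 fold changes of −0.63, −0.64 and −0.40. The 2 most abundant members differed less, with −0.02 for BTG1 (95% interval −0.21 to 0.17) and −0.15 for the ubiquitin ligase subunit FBXW7 (−0.38 to 0.08).

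Of 8 DNA repair targets, 2 fell and 7 were lower by sign. DDB2, which recognises ultraviolet damage for nucleotide excision repair, was at 26.7, 25.1 and 28.8 CPM in WT and at 7.37, 9.29 and 8.68 in R273H. It fell by 1.62 on the log2 scale (SE 0.13, edgeR's adjusted p = 3.16e-05), to 32.6% of WT, and it passed in 19 of 19 alternatives. RPS27L, a paralog of a small ribosomal subunit protein, was at 151, 126 and 179 CPM in WT and at 74.0, 82.1 and 98.0 in R273H and fell by 0.71 (edgeR's adjusted p = 0.0159). WT replicate 3 was the highest library for both genes. XPC, POLH and REV3L, named after their values were seen, had log2 fold changes of −0.48, −0.41 and −0.32, with no overlap between groups and no adjusted p under 0.05, whereas the ribonucleotide reductase subunit RRM2B was at −0.03.

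In the intrinsic apoptosis list, 4 of 12 members fell and 11 were lower by sign. CYFIP2 was at 42.9, 42.4 and 42.2 CPM in WT and at 21.9, 24.6 and 23.6 in R273H and fell by 0.87 (edgeR's adjusted p = 0.00078). The exonuclease gene AEN was at 80.2, 82.4 and 79.4 CPM in WT and at 49.2, 51.5 and 51.5 in R273H and fell by 0.68 (edgeR's adjusted p = 0.00147). For both genes the 3 WT libraries lay within a narrow range that included WT replicate 3. TP53I3, a quinone oxidoreductase, was at 17.9, 19.8 and 18.3 CPM in WT and at 6.68, 10.3 and 7.84 in R273H and fell by 1.20 (edgeR's adjusted p = 0.00326). BBC3, which encodes the BH3-only protein PUMA, was at 37.3, 39.2 and 30.2 CPM in WT and at 24.4, 23.2 and 27.0 in R273H and fell by 0.62 (edgeR's adjusted p = 0.0219). Its lowest WT value was in replicate 3, and edgeR gave an adjusted p of 0.143 once it was included. BAX, the pore-forming effector downstream of PUMA, was at 97.3, 87.4 and 77.3 CPM in WT and at 68.4, 69.2 and 62.7 in R273H, with no overlap and edgeR's adjusted p of 0.072.

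All 4 death receptor genes tested were lower by sign, with the largest negative median of the role lists, −0.99, over these few genes. FAS was at 5.17, 6.68 and 3.51 CPM in WT and at 1.61, 1.91 and 2.38 in R273H, which is 14 to 20 counts per R273H library, and it fell by 1.58 (SE 0.26, edgeR's adjusted p = 0.0159). WT replicate 3 held the lowest WT value, on 5 counts, and with it edgeR gave an adjusted p of 0.0739. EDA2R, a receptor for ectodysplasin A2, was the gene just outside the threshold, at 2.18, 3.47 and 2.11 CPM in WT and 0.691, 0.683 and 0.475 in R273H (log2 fold change −2.16, edgeR's adjusted p = 0.0567). Its R273H values rest on 4 to 6 counts per library, and that of WT replicate 3 on 3 counts, the floor. The decoy receptor TNFRSF10D and the TRAIL receptor TNFRSF10B, named after their values were seen, were at −0.40 and −0.31.

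**Figure D2:**
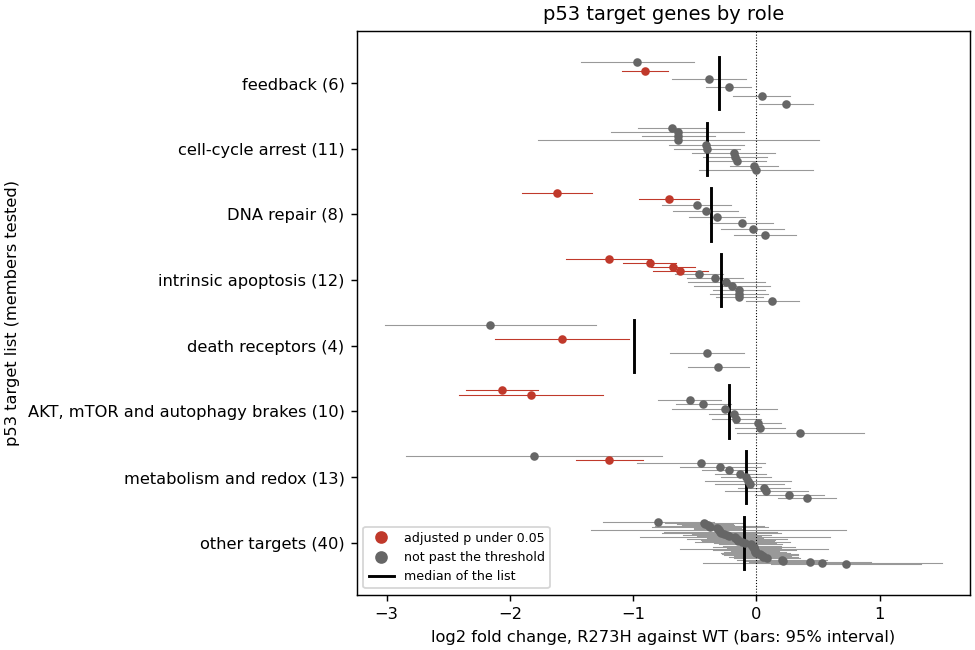
Points are log2 fold changes of R273H against WT for the 104 p53 targets tested, in rows by role with the number tested in parentheses, horizontal bars are 95% intervals and black lines are list medians. Red points passed an adjusted p of 0.05, and the medians run from −0.99 for the 4 death receptor genes to −0.08 for the 13 metabolism and redox genes.

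The gene with the lowest p of all was PHLDA3 (ENSG00000174307, chr1:201464278-201469237), whose product competes with AKT for membrane lipids. It was at 28.2, 31.0 and 30.9 CPM in WT and at 7.84, 5.88 and 7.25 in R273H. It fell by 2.07 on the log2 scale (95% interval −2.36 to −1.77, edgeR's adjusted p = 4.05e-06), to 23.9% of WT, and each R273H library lay well below the lowest WT library. DRAM1, a lysosomal membrane protein that promotes autophagy, was at 7.93, 4.88 and 6.33 CPM in WT and at 1.61, 2.05 and 1.78 in R273H and fell by 1.83 (edgeR's adjusted p = 0.0104) resting on 14 to 15 counts per R273H library. The other members of this list of AKT, mTOR and autophagy brakes varied, from −0.54 for SESN1, which restrains mTOR, to 0.36 for IGFBP3. IGFBP3 was among the genes that set WT replicate 3 apart.

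In the list of metabolism and redox targets, FDXR was the 1 member of 13 that fell. FDXR, the mitochondrial reductase that passes electrons to ferredoxin, was at 22.8, 26.9 and 16.9 CPM in WT and at 11.2, 10.5 and 10.7 in R273H and fell by 1.19 (SE 0.13, edgeR's adjusted p = 0.000428). The WT libraries spread more widely than the R273H libraries, but the groups did not overlap. Its substrate FDX1 was at 0.06. SPATA18, a mitochondrial quality control gene, had −1.81 at levels under 3 CPM in every library of both groups, and the polyamine acetyltransferase SAT1 had 0.41 with every R273H library above every WT library. Neither passed, and both were named after their values were seen. The 40 tested genes in the list of other p53 targets had a median of −0.10 and 0 members past the threshold. Its most abundant members were PHPT1, a histidine phosphatase, at −0.31 with no overlap, and TRIAP1, an apoptosis inhibitor, at −0.02.

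Outside the p53 lists 7 genes fell. ACTA2 (ENSG00000107796, chr10:88934822-88991339), which encodes smooth muscle actin, was at 22.1, 24.7 and 22.5 CPM in WT and at 6.45, 10.4 and 7.13 in R273H. It fell by 1.56 (95% interval −1.91 to −1.21, edgeR's adjusted p = 0.000428), to 33.9% of WT, and passed in 19 of 19 alternatives. Of the other 16 tested members of an actin and contractile list, 0 passed. TPM4, CALD1, TPM1 and FLNA, named after their values were seen, had every R273H library below every WT library, with log2 fold changes of −0.41, −0.37, −0.32 and −0.19. With ACTA2 included, 5 of 17 tested members lay apart on the lower side (29.4%, against 5.78% of all genes) and 0 on the higher side.

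The 2 non-coding genes that share the response element printed first both fell. LNCTAM34A (chr1:9181588-9198023, plus strand) was at 2.99, 3.08 and 3.51 CPM in WT and at 0.115, 0.273 and 0.238 in R273H, which is 1 to 2 counts per R273H library. Over summed counts, 5 in R273H against 50 in WT replicates 1 and 2, its level was 6.75% of WT (exact 95% interval for counting error only, 2.1 to 16.8%), and edgeR's adjusted p was 0.00133. MIR34AHG (chr1:9139555-9202826, minus strand), the host transcript of miR-34a, was at 3.56, 4.75 and 4.22 CPM in WT and at 0.691, 0.273 and 1.43 in R273H. Its level was 19.9% of WT (exact 95% interval for counting error only, 11.4 to 33.1%), with edgeR's adjusted p of 0.032, or 0.0552 with all 3 WT libraries. The 2 genes overlap on opposite strands and reads were counted by strand. The mature microRNA encoded within MIR34AHG, at chr1:9151735-9151756 on the minus strand, is given in its RefSeq form to identify the product of this host gene, with its seed (bases 2 to 8) in capitals.
hsa-miR-34a-5p: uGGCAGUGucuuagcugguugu
These libraries do not give the level of the mature microRNA, so only its host transcript is described.

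TYMSOS, a non-coding gene that begins 616 bases from TYMS on the opposite strand, was at 10.1, 9.38 and 8.43 CPM in WT and at 3.92, 4.78 and 2.85 in R273H and fell by 1.35 (edgeR's adjusted p = 0.0114). TYMS itself, the thymidylate synthase gene, was at 142, 132 and 127 CPM in WT and at 103, 100.05 and 99.7 in R273H. All 3 of its R273H libraries lay below the WT libraries, yet it did not pass (−0.44, edgeR's adjusted p = 0.072). It had the largest change of the 46 tested DNA replication genes, of which 0 passed. Of the 46, 39 were lower by sign (84.8%, against 49.3% of all genes tested), with a median of −0.11.

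The other 3 genes that fell outside the p53 lists were ENHO, PYGL and BRSK2. ENHO, which encodes the secreted peptide adropin, was at 26.0, 21.3 and 14.8 CPM in WT and at 10.8, 9.57 and 8.32 in R273H and fell by 1.30 (edgeR's adjusted p = 0.000558). PYGL, a glycogen phosphorylase, was at 97.0, 88.4 and 75.2 CPM in WT and at 54.5, 57.4 and 53.7 in R273H and fell by 0.75 (edgeR's adjusted p = 0.000867). Both genes were lowest within WT in replicate 3, and the groups did not overlap with it. Of 15 tested glycogen metabolism genes, PYGL was the 1 that passed, and the median was −0.06. BRSK2, a kinase related to AMPK, was at 4.94, 6.42 and 4.92 CPM in WT and at 1.27, 1.78 and 1.54 in R273H and fell by 1.89 (edgeR's adjusted p = 0.00624). CYFIP2, described among the apoptosis targets, is also a subunit of the actin-regulating WAVE complex. The other 8 tested members of that list, which include its paralog CYFIP1 (0.07), ranged from −0.07 for ABI1 to 0.30 for WASF3, and 0 of them passed.

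**Figure D3:**
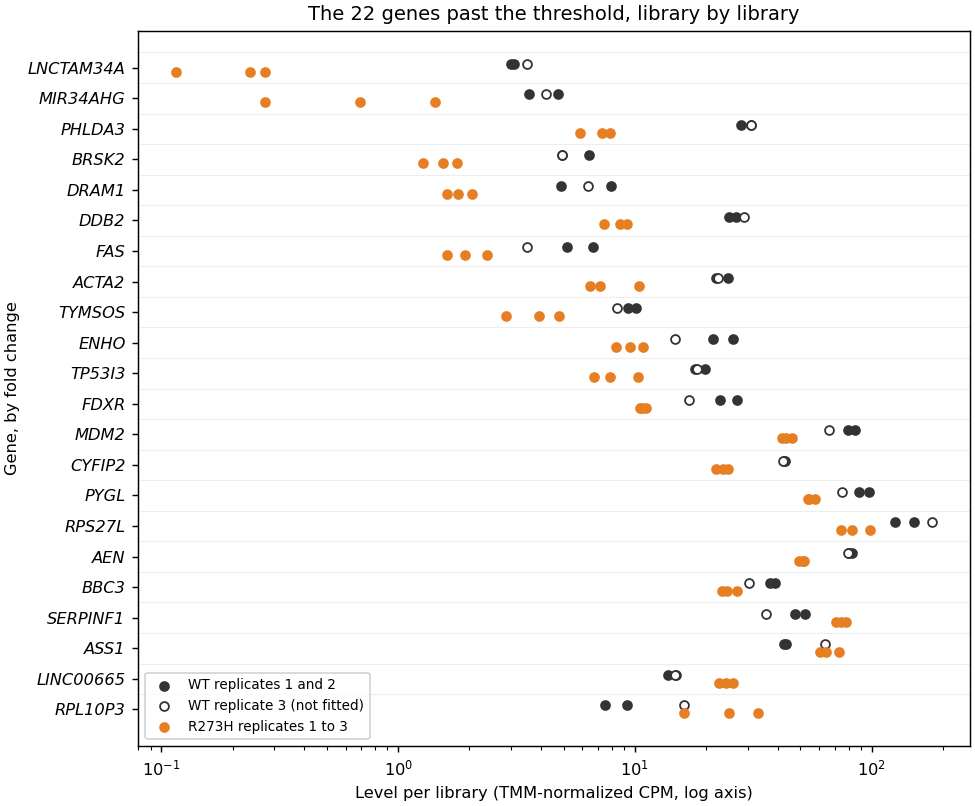
Each row is 1 of the 22 genes past the threshold, with its TMM-scaled CPM on a log axis in WT replicates 1 and 2 (black), WT replicate 3 (open) and the 3 R273H libraries (orange). For 20 of the 22 genes the R273H libraries lie apart from all 3 WT libraries, and the exceptions are ASS1 and RPL10P3.

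The 4 genes that rose were LINC00665, SERPINF1, ASS1 and RPL10P3. LINC00665, a long non-coding RNA, was at 14.9, 13.7 and 14.8 CPM in WT and at 24.2, 22.6 and 25.9 in R273H, a rise of 0.76 (edgeR's adjusted p = 0.0159), and it was the 1 gene that also rose when WT replicate 3 was added (adjusted p = 0.0286 in edgeR). SERPINF1, the secreted serpin PEDF, was at 52.1, 47.5 and 35.8 CPM in WT and at 78.0, 74.1 and 70.5 in R273H, a rise of 0.58 (edgeR's adjusted p = 0.0159, or 0.0524 with all 3 WT libraries). Both had every R273H library above every WT library. ASS1, which joins citrulline and aspartate in arginine synthesis, was at 43.3 and 42.4 CPM in WT replicates 1 and 2 but at 63.3 in the third, which is inside the R273H range of 60.6 to 72.8 CPM. Its rise of 0.62 (edgeR's adjusted p = 0.0159) thus depended on which WT libraries were used, with edgeR's adjusted p of 0.481 for all 3 and 0.0478 in limma's voom with quality weights for all 3. The processed pseudogene RPL10P3 was at 7.47, 9.25 and 16.2 CPM in WT and at 25.0, 33.1 and 16.2 in R273H, and because it resembles the ribosomal protein gene RPL10 and multi-mapping reads were shared as fractions, its value is uncertain.

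Besides EDA2R, BTG2, TYMS and BAX, the 10 genes nearest the threshold on its outer side were SNAI2, CKMT1A, CKMT1B, NEUROG2-AS1, PURPL and MBOAT7, with adjusted p from 0.0567 to 0.0926 in edgeR's test. SNAI2, a repressor of epithelial genes, was at 31.9, 28.1 and 18.3 CPM in WT and at 17.2, 22.1 and 17.9 in R273H, so that WT replicate 3 fell within the R273H range. PURPL, a non-coding RNA known to be induced by p53, was at 29.4, 38.3 and 45.7 CPM in WT and at 23.7, 21.2 and 19.6 in R273H, with no overlap. The acyltransferase gene MBOAT7 was at 26.0, 27.9 and 26.7 CPM in WT and at 17.7, 18.2 and 19.3 in R273H. CKMT1A and CKMT1B, which encode the same mitochondrial creatine kinase from near-identical copies, had −0.75 and −0.80 and share reads, so neither value is certain. NEUROG2-AS1 had 1.39 on levels of 1.95 to 8.34 CPM, with WT replicate 3 within the R273H range.

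Among genes of at least 5 CPM that did not pass and whose groups did not overlap, the highest log2 fold changes were those of SERPINI1 (0.76), FAM117B (0.68), SHC2 (0.67), ZSWIM5 (0.64) and the antisense gene DSP-AS1 (0.63). SERPINI1, a neuronal serpin, was at 3.33, 3.98 and 3.51 CPM in WT and at 5.88, 6.15 and 6.54 in R273H. The lowest were TP53INP1, ASTN2 (−0.80), CKMT1A, the proteoglycan SDC1 (−0.69) and BTG2. By comparison, 6.21% of all genes tested lay apart on the higher side and 5.78% on the lower side.

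The genes that passed were also read against the G245S line, since a value particular to R273H would have to differ from it. The comparisons of the mutants with WT share the WT libraries, so their values are set side by side without a correlation. Of the 22 genes, 18 had an adjusted p under 0.05 for G245S against WT in edgeR's test, the exceptions being LNCTAM34A, RPL10P3, FAS and MIR34AHG, at log2 fold changes of −2.55, 1.79, −1.25 and −1.77. In the direct comparison of R273H with G245S, 20 of the 22 genes could be tested and 0 passed, with or without a replicate block. ACTA2 was the 1 gene with an unadjusted p under 0.05 there, at 6.45, 10.4 and 7.13 CPM in R273H and 3.77, 7.73 and 4.92 in G245S, which overlap (0.55, 95% interval 0.03 to 1.06). The interval of the difference was −0.22 to 0.50 for PHLDA3, −0.53 to 0.07 for DDB2 and −0.26 to 0.09 for MDM2. For DRAM1, BRSK2 and FAS it was wider, at −0.70 to 0.64, −0.81 to 0.57 and −0.94 to 0.28, so the depth at these genes leaves room for sizeable differences between the mutants. The median of the 104 p53 targets in this direct comparison was 0.0027.

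Genes for mitochondrial function, which the study addressed by other assays, had 0 members past the threshold in the lists used here. Of all genes tested 0.137% passed, and at that share lists of this size could hold none. The 60 nuclear genes of oxidative phosphorylation had a median of 0.02. By sign 43 of them were higher and 17 lower (28.3%, against 49.3% of all genes tested). The 20 genes of the mitochondrial surface and import machinery had a median of 0.01, and TIMM17B, a subunit of the inner membrane translocase, had the largest change (−0.19). The 13 mitochondrially encoded mRNAs had a median of 0.15 with WT replicates 1 and 2 and −0.01 with all 3 WT libraries. MT-ND2 had the largest change of this list, at 0.29 (95% interval 0.01 to 0.58), but WT replicate 3 was its highest library, and the sign turned with either pair of WT libraries that included replicate 3. Mitochondrial genes held 4.47 to 7.02% of the counts in WT and 4.83 to 6.86% in R273H.

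Genes that the study's text names for other assays or from earlier work gave narrow intervals. COX7C, a subunit of complex IV, had a log2 fold change of −0.03 (95% interval −0.26 to 0.19), the RNA-binding protein gene ZC3H7B −0.08 (−0.34 to 0.17), the outer membrane receptor TOMM70 −0.0021 (−0.18 to 0.18) and the kinase anchor AKAP1 −0.13 (−0.37 to 0.12). The splicing factors TRA2B and SRSF2 were at −0.08 and −0.0050, the export factor SARNP at −0.02 and the uridylyltransferase TUT4 at −0.03. Each of these intervals lay within a change of 1.5-fold either way. ABCB1, a drug efflux pump, had 0.61 (0.23 to 0.995) and did not pass (edgeR's adjusted p = 0.496). Over all genes, 66.95% had an interval within 1.5-fold either way, 98.2% of those at 20 to 100 CPM but 5.30% of those at 1 to 5 CPM, so a change could have been missed in low genes.

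**Figure D4:**
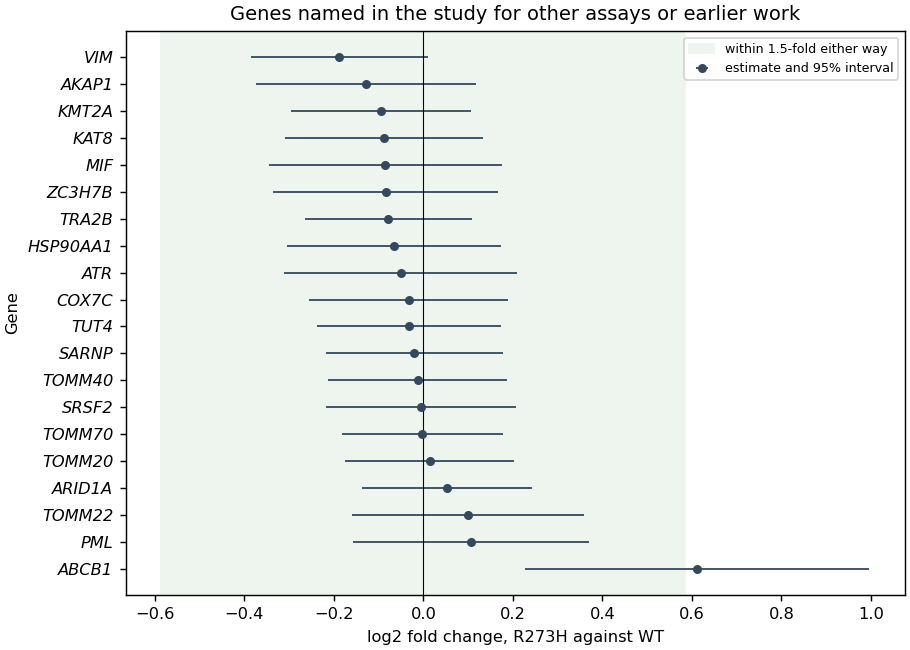
Points are log2 fold changes of R273H against WT for 20 genes named in the study's text, bars are 95% intervals and the shaded band is a change of up to 1.5-fold either way. ABCB1 is the 1 gene whose interval leaves the band.

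In the remaining pathway lists ASS1 was the 1 member that passed. The 27 tested glycolysis and hypoxia genes had a median of −0.04, or 0.02 with all 3 WT libraries, and HK2 had the largest change at 5 CPM or more (−0.34, overlapping). BNIP3, BNIP3L, PDK1 and NDRG1, named after their values were seen, were lower in every R273H library than in every WT library, at −0.33, −0.33, −0.31 and −0.29. In this list 7 of the 27 lay apart on the lower side (25.9%, against 5.78% of all genes). On the higher side 1 did (3.70%, against 6.21%). The 23 mevalonate and sterol genes had a median of 0.08, led by HMGCS1 (0.31, overlapping). GCLC, which makes the first intermediate of glutathione, was at 16.9, 15.5 and 16.2 CPM in WT and at 21.7, 21.9 and 22.1 in R273H (0.43, edgeR's adjusted p = 0.367), and the NRF2 list around it had a median of 0.05. The members with the largest change at 5 CPM or more were NDC80 (−0.35) among the 40 mitotic genes, SHMT2 (−0.22) among the ATF4 targets, IFITM1 (0.48) among the interferon genes, HNRNPC (−0.15) among the RNA-processing partners, SUPT16H (−0.19) among the chromatin regulators and HSP90AB1 (−0.14) among the chaperones. The medians of these 6 lists lay between −0.06 and 0.04, and with all 3 WT libraries that of the interferon list turned from 0.04 to −0.14 and that of the chaperones from −0.01 to 0.07. The 20 nucleotide synthesis genes, which include TYMS, had a median of −0.0069, the 12 tested arginine metabolism genes −0.0080 and the 18 epithelial-mesenchymal genes 0.10, and with all 3 WT libraries these turned to 0.0068, 0.03 and −0.02.

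By gene class, 15 of 12760 protein-coding genes fell and 2 rose, 3 of 2241 long non-coding genes fell and 1 rose, and 1 of 654 processed pseudogenes rose. The median log2 fold change of a nuclear chromosome ran from −0.04 on chromosome 18 to 0.03 on chromosome 19, and the fallen genes were spread over chromosomes with at most 3 on any one, on chromosome 1.

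Besides its depth, WT replicate 3 stood apart in what it expressed. It exceeded the highest of the other 8 libraries by at least 2-fold at 20 or more of its counts, or 14.1 CPM, in 104 genes, 51 of them protein-coding. At the same 14.1 CPM and 2-fold, no other library exceeded the rest in more than 1 gene. That level stands for more counts in the deeper libraries, so counting error weighs more on WT replicate 3. None of the 22 genes that passed was among the 104, but IGFBP3, PLK2 and THBS1 of the p53 lists were. The simple-epithelial keratin KRT19 was at 33.7 CPM in WT replicate 3 and at 0.258 to 1.37 CPM in the other 8 libraries. The retinaldehyde dehydrogenase ALDH1A1 was at 29.5 CPM, against 0.575 to 1.64. APOE and FN1 were at 88.6 and 112 CPM, against at most 7.11 and 22.4. The 7 epithelial markers summed to 273 CPM in it, to 73.9 and 81.3 CPM in the other WT libraries and to 84.0 to 86.5 CPM in R273H. EPCAM was at 14.1 CPM in it and at most 3.42 CPM elsewhere, so that in the libraries of the main comparison the label of an epithelial cell rests mostly on KRT18. The origin of these transcripts was not tested. The 7 fibroblast markers summed to 42.9, 72.1 and 118 CPM in WT and to 85.3, 127 and 56.2 in R273H, which overlap. All 6 of them that could be tested were higher by sign in R273H (median log2 fold change 0.73, or 0.50 with all 3 WT libraries). In edgeR's test 3 of the 6 had an unadjusted p under 0.05 and 0 passed, and the groups overlapped for each of the 6. Their part in the other results was not tested. The 5 endothelial and 6 leukocyte markers summed to at most 1.64 and 2.50 CPM in the 8 deeper libraries and to 4.22 and 10.5 CPM in WT replicate 3, the highest of the 9. The sums in WT replicate 3 rest on few counts, since 3 counts are 2.11 CPM there. In it 2 of the 5 and 3 of the 6 markers had 0 counts.

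**Figure D5:**
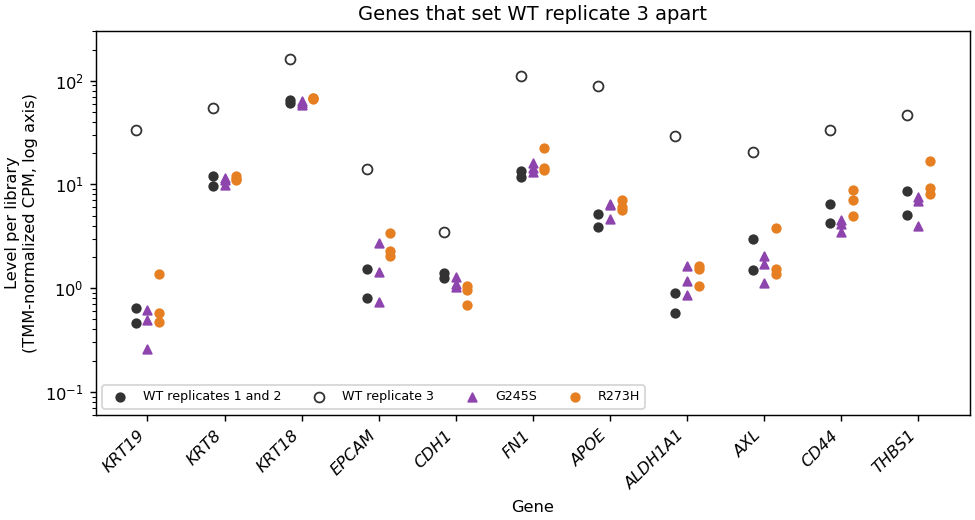
Levels of 11 genes are given as TMM-scaled CPM on a log axis for each of the 9 libraries, with WT replicates 1 and 2 in black, WT replicate 3 open, G245S as purple triangles and R273H in orange. WT replicate 3 is the highest library for each gene shown, for instance at 33.7 CPM for KRT19 against at most 1.37 CPM in any other library.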

How the data were processed

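RNA from 3 replicates each of stable HEK293T cells expressing WT, G245S or R273H p53 was sequenced. The authors filtered reads with fastp 0.24.0, aligned them with STAR 2.7.11, removed duplicates by molecular identifier and counted them with featureCounts (Subread 2.1.1) by strand, splitting multi-mapping reads between genes, so the deposited values are expected counts on GRCh38 with no scaling. The CPM columns deposited beside them were not used.

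Counts were rounded. Genes were filtered with filterByExpr, scaled by TMM and tested in edgeR 4.0.16 (R 4.3.3) by its quasi-likelihood test. The test set 3 R273H against 2 WT libraries, as the study's methods leave out 1 WT library for low reads and poor sample quality. WT replicate 3 was left out for its depth, with all 3 used as an alternative. Standard errors were derived from the F statistic. The floor was 3 counts, or 0.306 to 0.410 CPM in the 8 deeper libraries and 2.11 CPM in WT replicate 3. Floors and counting intervals cover counting error only. DESeq2 1.42.0 and voom of limma 3.58.1 served as alternatives, beside other scalings and filters, the exact test of edgeR, other WT libraries, a replicate block and leaving out each library. The script was tested on simulated counts. Promoter windows came from RefSeq and canonical starts from GENCODE. Tables and plots used data.table (version 1.17.8), Python 3.11.15, numpy 2.4.6, pandas 2.3.3 and matplotlib 3.10.9.

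Named genes were those past the threshold, CDKN1A, the 2 most abundant members of each p53 list without a call, the called members and the largest change at 5 CPM or more in each other list, the 10 genes nearest the threshold outside it, and the 5 highest and 5 lowest genes at 5 CPM or more that did not pass and whose groups did not overlap. The members and lists were chosen with earlier results of these data known. Some of the planned results are not given here.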

Additional observations from a re-analysis of the deposited data

Results flagged for a closer look

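WT replicate 3, which the main comparison left out for its depth, carried a signal that the other libraries lacked, with 104 genes at least 2-fold above the highest of the other 8 libraries at 20 or more of its counts. Those 20 counts are 14.1 CPM, a level that stands for more counts in the deeper libraries. At that CPM the number of such genes was 0 or 1 in each of the other 8 libraries, the WT controls included. The largest ratio among the genes named was that of KRT19, 24.7 times the highest other library on 48 counts, followed by ALDH1A1 at 18 times on 42 counts and APOE at 12.5 times on 126 counts. None of the 22 genes past the threshold was among the 104.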

How the results depend on the processing

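Of the 22 genes that passed, none changed direction under any of the 19 alternatives, and PHLDA3, DDB2 and ACTA2 passed under all 19. The least steady calls were MIR34AHG, which passed in 9 of 18, BBC3 in 10, FAS in 11 and LINC00665 in 11. The count of genes past the threshold was 4 with WT replicates 1 and 3, 13 with WT replicates 2 and 3, 93 with no filter on low counts and 61 with edgeR's exact test, and 22 of the 93 and 22 of the 61 were the genes of the report. The split was 30 higher and 63 lower without the filter, and 15 higher and 46 lower in the exact test. It was 16 with all 3 WT libraries and 23 with DESeq2, and leaving out 1 library gave 16 to 29. Where that left 1 WT library, its spread was taken to equal that within R273H. The median of the p53 target list was −0.25 with WT replicates 2 and 3 and lay between −0.25 and −0.18 when 1 library was left out. Same-numbered R273H and WT libraries did not deviate together (correlations −0.14, −0.22 and −0.22). The WT deviations were taken from a mean that included WT replicate 3, so this check cannot tell whether the numbers pair the libraries. With a replicate block 47 genes passed, 25 higher and 22 lower. In that fit R273H replicate 3 had no WT library of its number, so the difference rested on replicates 1 and 2 of each group. With all 3 WT libraries in the block 12 genes passed. The median of the p53 target list in these fits was, in this order, −0.20 and −0.21. For R273H against G245S, same-numbered libraries had correlations of 0.26, 0.39 and 0.0077, so the third pair gave no sign of pairing, and 59 genes passed with the block, 33 higher and 26 lower in R273H, against 0 without it. Besides that, 1 passed with DESeq2 and 0 to 3 without 1 library, alternatives of which the last were chosen after seeing the data, and 3 passed without G245S replicate 2.

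Signs turned only for genes that did not pass. MT-ND2 was at −0.092 with WT replicates 1 and 3 and −0.14 with 2 and 3, and SUPT16H at 0.062 with 1 and 3. TRIAP1 was at 0.022 with WT replicates 2 and 3, 0.0043 with library-size scaling, 0.0039 with a replicate block and between −0.14 and 0.12 when 1 library was left out, above 0 without R273H replicate 1, R273H replicate 3 or WT replicate 1. BTG1 was at 0.0048 with library-size scaling, 0.014 with the block, and between −0.069 and 0.025 when 1 library was left out, above 0 without R273H replicate 3 or WT replicate 1. The causes were not tested. Depth limits low genes most, as the intervals by level show, and 2 fitted WT libraries limit every comparison.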
